A study of Mus musculus with 5 samples.

Results

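Chemokines are small secreted proteins that draw leukocytes along a concentration gradient, and they act through receptors that couple to G proteins. The genes described here are the chemokine ligands and receptors of a mouse liver tumour, chosen by name: every gene of the deposited table whose symbol is Ccl, Cxcl, Cx3cl, Xcl, Ccr, Cxcr, Cx3cr, Xcr or Ackr followed by a digit. They are 61 of the 22287 genes in the table, 38 ligands and 23 receptors. Ligands are named after the spacing of their first cysteines (CC, CXC, CX3C, XC). In liver, hepatocytes, Kupffer cells, endothelium and stellate cells all make chemokines, and T cells, monocytes and neutrophils carry most of the receptors. The atypical receptors (Ackr) bind chemokines without G protein signalling and mostly remove or transport them.

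RNA was sequenced from tumours of 3 lnc-CTHCC-/- libraries (KO) and 2 wild-type libraries (WT), where lnc-CTHCC names a long non-coding RNA. All were C57BL/6 mice given DEN, a liver carcinogen, with CCl4, a liver toxicant, over 5 months. The sources used here state neither age nor sex nor how the allele was made, and do not say that the libraries of a genotype came from separate animals. P-values therefore measure the spread between these libraries, which may be technical. The lnc-CTHCC transcript was not analysed here, so the genotypes stand as labelled.

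Levels are in FPKM, the authors' deposited measure of fragments per gene length and library size, which allows levels to be compared between genes. A library's values summed to between 526229 and 552619 FPKM. Read depth is unknown, so no counting error can be given for values near 0. The 10 hepatocyte markers, Alb among them, were all detected, and summed to 149000, 147000 and 146000 FPKM in the KO libraries, against 173000 and 127000 FPKM in the WT libraries. In bulk tumour RNA, fewer cells of a type and less RNA per cell cannot be told apart.

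The question put to these genes is which of them differ between tumours with and without lnc-CTHCC. Cxcl9, Cxcl1 and Cxcl10 were lower in each of the 3 KO libraries than in either WT library, with KO means of 0.332, 0.438 and 0.552 of the WT means. CXCL9 and CXCL10 draw CXCR3-bearing T and NK cells and are induced by interferon gamma, and CXCL1 draws neutrophils through CXCR2. The most abundant ligands, Ccl9 and Cxcl12, and the leading receptor, Cxcr4, overlapped between genotypes. No chemokine gene passed the test across all genes: differences were fitted by limma on log2(FPKM + 1) for the 10132 genes with a mean of at least 1 FPKM, with Benjamini-Hochberg adjustment at 0.05. That test calls 0.00987% of genes, 1 of 10132, and calls 0 of the 19 chemokine genes that reached the expression limit.

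At an unadjusted p under 0.05, limma had 4 of those 19 lower in KO (Cxcl1, Cxcl9, Cxcl10 and Ccl5), where 1.45% of all genes were, and 1 higher (Ccl27a), where 1.78% were. Cxcl9 and Cxcl1 were already known to be lower when the group was chosen. Their place in that count, and in the counts of lower genes that follow, is no independent finding. All KO libraries were below both WT libraries in 4 of the 19 (Cxcl9, Cxcl1, Cxcl10 and Ccl25), where 5.29% of the genes tested were, and above both in 1 (Ccl27a), where 9.78% were. All 19 had a mean of at least 1 FPKM in both genotypes, and the mean was lower in KO in 10 of them, where it was in 40.2% of the genes tested. The median of their fitted differences, KO minus WT, was 0.01 on the log2(FPKM + 1) scale, against 0.05 for all genes tested, and 9 lay below and 10 above 0. Cxcl13 had a higher mean and Ccl2 and Ccl21a a lower mean in KO than in WT while their fitted differences, at -0.03, 0.05 and 0.11, had the other sign. With 3 KO and 2 WT libraries, no exact permutation p (two-sided) can be smaller than 0.1, and single genes were not tested that way.

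**Figure D1:**
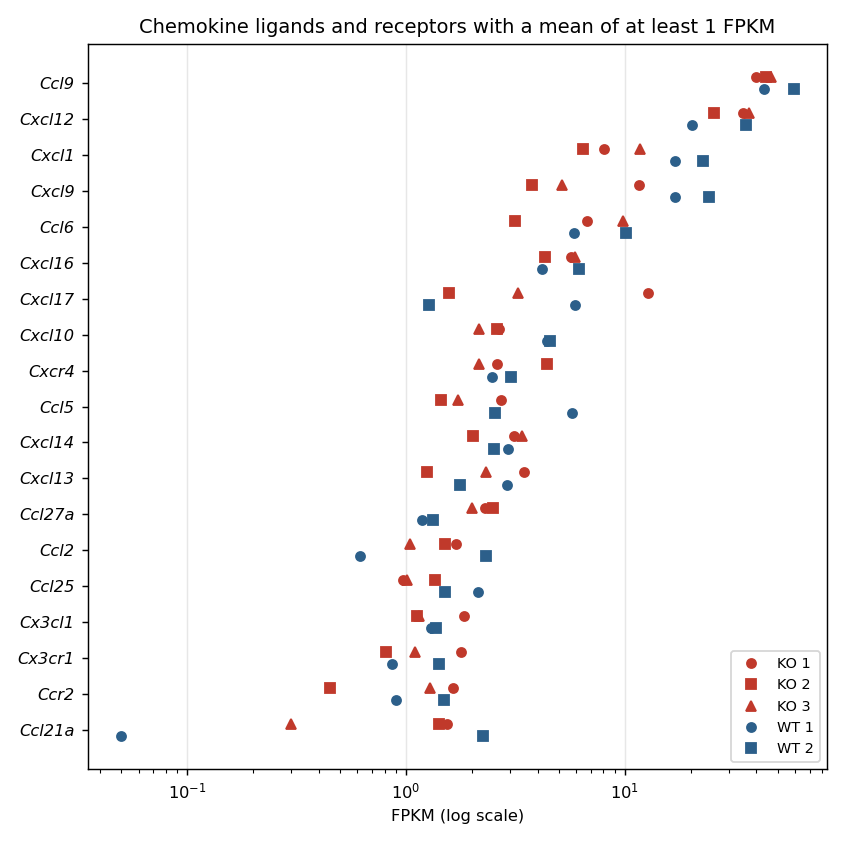
FPKM on a log axis of the 19 chemokine genes with a mean of at least 1 FPKM, ordered by mean, with 1 point per library (KO red and above, WT blue and below). The KO points of Cxcl9, Cxcl1 and Cxcl10 lie to the left of both WT points, while Ccl9 and Cxcl12, the most abundant, overlap.

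The promoters of Cxcl1, Cxcl9 and Cxcl10 are shown because these 3 ligands had the smallest p-values of the 19. They lie on mouse chromosome 5 in build GRCm38.p6, and each stretch is the 250 bases before the RefSeq start, read 5′ to 3′ on the gene's strand: chr5:90890995-90891244 on the plus strand for Cxcl1, chr5:92328080-92328329 on the minus strand for Cxcl9 and chr5:92348890-92349139 on the minus strand for Cxcl10. Capitals mark matches, on either strand, to an NF-kB motif (GGGANNTNC), an interferon-stimulated response element (ISRE, GAAANNGAA) or a gamma-activated site (GAS, TTCNNNGAA).
Cxcl1: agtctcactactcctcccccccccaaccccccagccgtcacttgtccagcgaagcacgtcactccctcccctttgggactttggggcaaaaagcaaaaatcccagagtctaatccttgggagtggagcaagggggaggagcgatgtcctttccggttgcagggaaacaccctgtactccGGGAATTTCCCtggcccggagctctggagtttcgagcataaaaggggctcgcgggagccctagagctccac
Cxcl9: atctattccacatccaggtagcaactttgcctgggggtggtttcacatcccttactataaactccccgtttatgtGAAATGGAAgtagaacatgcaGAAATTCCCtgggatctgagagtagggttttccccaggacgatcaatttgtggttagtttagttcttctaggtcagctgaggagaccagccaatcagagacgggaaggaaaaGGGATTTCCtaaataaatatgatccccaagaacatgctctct
Cxcl10: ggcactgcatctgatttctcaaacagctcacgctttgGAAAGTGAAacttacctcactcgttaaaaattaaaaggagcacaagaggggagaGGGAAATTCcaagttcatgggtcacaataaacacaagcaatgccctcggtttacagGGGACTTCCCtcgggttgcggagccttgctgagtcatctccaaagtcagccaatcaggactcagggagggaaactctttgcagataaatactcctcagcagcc

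Cxcl1 held the NF-kB letters 71 to 61 bases before its start, where matches on both strands overlap. Cxcl9 held them 154 to 146 and 42 to 34 bases before its start, and an ISRE 175 to 167 bases before it. Cxcl10 held the NF-kB letters 159 to 151 and 103 to 94 bases before its start, the nearer stretch on both strands, and an ISRE 213 to 205 bases before it. No GAS letters were found in the 3 windows, which says only that these letters are not there. Of the 61 genes, 46 had a RefSeq window. The NF-kB letters were in 10 of these 46, against 12.4% of 27025 promoters of the same length, the ISRE letters in 8, against 7.16%, and the GAS letters in 4 (Cxcl14, Ccl17, Ccr6 and Ccr1l1), against 7.18%. The outcome depends on motif length: with 1 more C after the NF-kB letters, or 1 more A after the ISRE letters, the Cxcl9 window had no match, while those of Cxcl1 (NF-kB) and Cxcl10 (both) still had. The longer NF-kB form was in 6 of the 46 (Cxcl1, Cxcl2, Cxcl3, Cxcl10, Ccl1 and Ccr3), against 3.23% of promoters, and the longer ISRE in 3 (Cxcl10, Cxcl14 and Ccl19), against 3.04%. A match is a description of the sequence and no evidence of a factor bound there.

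The ligands of CXCR3, a receptor of activated T and NK cells, are 3 neighbours on chromosome 5, between 92321347 and 92365485. Cxcl9 (ENSMUSG00000029417) was at 11.58, 3.77 and 5.19 FPKM in the KO libraries, against 16.95 and 24.27 FPKM in the WT libraries. KO 1 was the highest of the KO libraries and still below WT 1. The means were 6.85 ± 4.16 FPKM in KO (SD, n = 3) and 20.6 ± 5.18 FPKM in WT (SD, n = 2), and the fitted difference was -1.57 on the log2 scale (SE 0.373; adjusted p = 0.893 by limma). Cxcl10 (ENSMUSG00000034855) was at 2.67, 2.60 and 2.16 FPKM in KO tumours, against 4.40 and 4.57 FPKM in WT tumours. Both genotypes were tight for this gene, and its fitted difference was -0.66 (SE 0.183; adjusted p = 0.999 by limma). Part of a Cxcl10 exon overlaps an exon of Art3 on the other strand, and the sources used here do not state whether counting used strand.

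Cxcl11, the third of these neighbours, did not share the direction. It was at 0.73, 0.64 and 0.84 FPKM in KO tumours, against 0.60 and 0.52 FPKM in WT tumours, so all KO libraries were above both WT libraries. C57BL/6 mice are known to carry a Cxcl11 allele that makes no functional protein. The summed level of the 3 ligands was 15.0, 7.01 and 8.19 FPKM in KO, against 22.0 and 29.4 FPKM in WT. Cxcl9 made up most of each sum and was known to be lower when the group was chosen. The lower sum is therefore no independent finding. Cxcr3, the receptor of the 3 ligands, was at 0.20, 0.08 and 0.16 FPKM in KO, against 0.24 and 0.19 FPKM in WT, and overlapped.

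The 5 CXC ligands with the ELR motif, which attract neutrophils, most of them through CXCR2, form a second cluster on chromosome 5, between 90759360 and 90905938. Cxcl1 (ENSMUSG00000029380) was at 8.04, 6.45 and 11.78 FPKM in the KO libraries, against 17.03 and 22.92 FPKM in the WT libraries, without overlap. Its means were 8.76 ± 2.74 FPKM in KO (SD, n = 3) and 20.0 ± 4.17 FPKM in WT (SD, n = 2), and the fitted difference was -1.13 on the log2 scale (SE 0.255; adjusted p = 0.822 by limma). Cxcl2 was scarcely detected, at 0.03, 0.03 and 0.00 FPKM in KO and at 0.19 and 0.16 FPKM in WT. Fitted with no expression filter, it had the smallest unadjusted p of all the chemokine genes (adjusted p = 0.577 by limma). The fitted difference of Cxcl2 was only -0.20, and the authors' deposited table gives it a false discovery rate of 0.9999. The other 3 of the cluster, Cxcl3, Cxcl5 and Cxcl15, overlapped between genotypes and stayed under 0.4 FPKM in every library. Cxcr2, the receptor of these ligands on neutrophils, was at 0.23, 0.08 and 0.15 FPKM in KO, against 0.26 and 0.32 FPKM in WT, without overlap, and Cxcr1 was listed at 0 in 4 libraries and at 0.07 FPKM in WT 1.

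In the authors' deposited table, 2 of the 61 genes have a false discovery rate under 0.05, Cxcl9 (log2 fold change -1.59, rate 0.0143) and Cxcl1 (log2 fold change -1.19, rate 0.0401). Such a rate with a lower KO level is held by 0.126% of the 22287 genes of the authors' deposited table, and the sources used here do not name the tool behind it. An unadjusted p under 0.05 in the authors' deposited table is given to 5 of the 61 as lower (these 2, Cxcl10, Ccl5 and Ccl8), where 1.6% of all genes are, and to 0 as higher, where 1.18% are. Cxcl9 and Cxcl1 were known to be lower when the group was chosen, so their place in these counts is no independent finding. The shares are over all 22287 genes, of which 6001 were at 0 in all libraries, as were 3 of the 61. Both analyses rest on the same 5 libraries, so the authors' deposited table is no independent check.

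**Figure D2:**
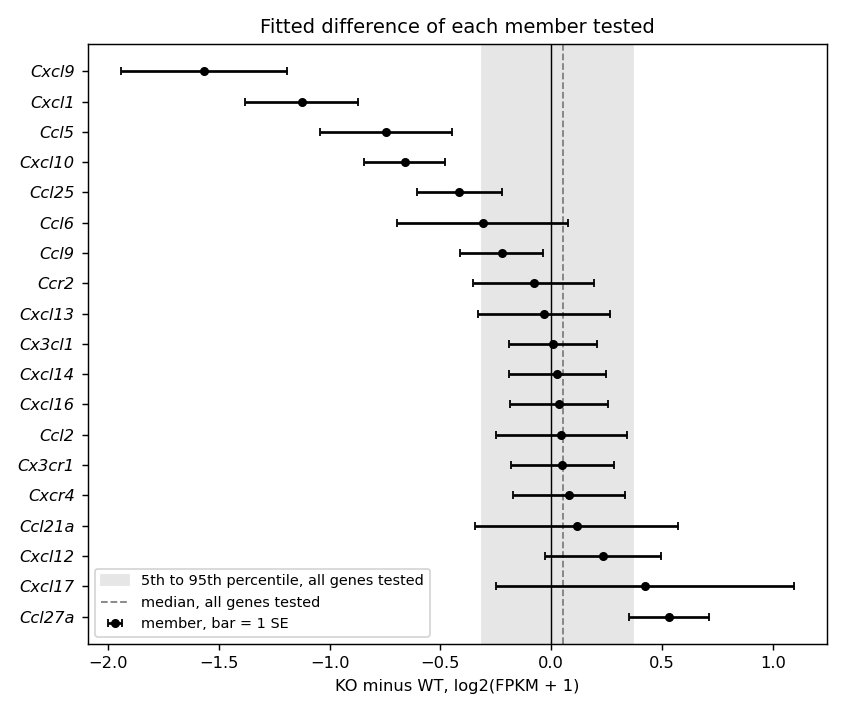
Fitted difference, KO minus WT in log2(FPKM + 1), for the 19 chemokine genes tested, with bars of 1 SE; the grey band spans the 5th to 95th percentile of all 10132 genes tested (-0.31 to 0.37) and the dashed line is their median of 0.05. Cxcl9, Cxcl1, Ccl5, Cxcl10 and Ccl25 lie left of the band and Cxcl17 and Ccl27a right of it.

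The other CXC ligands had a higher mean in KO in 5 of 5 cases, each by less than the SD between libraries in at least 1 genotype. Cxcl12, made by stromal and endothelial cells and needed for CXCR4-dependent homing, was at 34.84, 25.67 and 36.86 FPKM in KO, against 20.38 and 36.01 FPKM in WT. WT 1 was the lowest library and WT 2 fell within the KO range. Cxcl16, a transmembrane ligand of CXCR6, was at 5.66, 4.32 and 5.92 FPKM in KO, against 4.21 and 6.16 FPKM in WT. Both overlapped between genotypes. Cxcl14, an epithelial chemokine, was at 3.13, 2.02 and 3.40 FPKM in KO, against 2.93 and 2.54 FPKM in WT. Cxcl13, which recruits B cells to follicles through CXCR5, was at 3.45, 1.25 and 2.33 FPKM in KO, against 2.91 and 1.77 FPKM in WT. Cxcl17, a mucosal chemokine, was the least even, at 12.80, 1.57 and 3.25 FPKM in KO, against 5.94 and 1.27 FPKM in WT. Its log2 difference of 0.42 (SE 0.671) became -0.26 without KO 1, the library with the highest value, and -0.38 without WT 2, the one with the lowest.

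Of the 9 CC ligands that attract monocytes, macrophages and T cells, all 9 had a lower mean in KO, where 42.4% of the genes above 0 did, and in each of the 9 the genotypes overlapped. Ccl9, a ligand of CCR1 and the most abundant chemokine of these tumours, was at 39.66, 44.26 and 46.41 FPKM in KO, against 43.46 and 59.29 FPKM in WT. It took 27.4% to 41.0% of the summed ligand FPKM in KO libraries and 31.0% and 31.5% in WT libraries. Ccl6, its neighbour and another CCR1 ligand, was at 6.76, 3.15 and 9.86 FPKM in KO, against 5.87 and 10.11 FPKM in WT. Ccl5 (RANTES), released by T and NK cells, was at 2.71, 1.45 and 1.73 FPKM in KO, against 5.74 and 2.55 FPKM in WT, where WT 2 lay below KO 1. Its fitted difference was -0.75 (SE 0.299; adjusted p = 0.999 by limma), and -0.28 without WT 1. Ccl2, the main attractant of CCR2 monocytes, was at 1.69, 1.51 and 1.04 FPKM in KO, between 0.62 and 2.33 FPKM in the WT libraries.

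Ccl8, another monocyte attractant, had a mean of 0.838 FPKM over all libraries, the nearest of the group below the expression limit, and Ccl21a, at 1.11 FPKM, was the nearest above it. Ccl8 was at 0.76, 0.07 and 0.14 FPKM in KO, against 0.57 and 2.65 FPKM in WT. The others of these 9, Ccl3, Ccl4, Ccl7 and Ccl12, stayed under 0.7 FPKM in every library. Of the eotaxins, which attract eosinophils through CCR3, Ccl11 and Ccl24 overlapped between genotypes and Ccl26 was listed at 0 throughout.

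Chemokines of lymphoid tissue and epithelia went in both directions. Ccl27a, which attracts CCR10 T cells to skin, was at 2.29, 2.51 and 2.01 FPKM in KO, against 1.19 and 1.33 FPKM in WT, with a fitted difference of 0.53 (SE 0.179; adjusted p = 0.999 by limma). Its unadjusted p was under 0.05 by limma but not in the authors' deposited table. An exon of Ccl27a overlaps Il11ra1 on the other strand, and Ccl27b, listed at 0, is a near copy, so the value may include reads of either. Ccl25, the CCR9 ligand of thymus and small intestine, was at 0.97, 1.36 and 1.01 FPKM in KO, against 2.14 and 1.51 FPKM in WT, without overlap (fitted difference -0.41, SE 0.193; adjusted p = 0.999 by limma). It shares an exon stretch with Elavl1 on the other strand.

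Ccl19, the CCR7 ligand that guides dendritic cells and naive T cells, was at 0.94, 1.18 and 0.66 FPKM in KO, against 0.39 and 0.43 FPKM in WT. Ccl21a, the other CCR7 ligand, was at 1.54, 1.42 and 0.30 FPKM in KO, against 0.05 and 2.25 FPKM in WT. WT 1 was the lowest and WT 2 the highest of the 5 libraries for Ccl21a, and reads may be split with its near copy Ccl21b, at 0.00 to 1.17 FPKM. Ccl17 and Ccl22, the 2 ligands of CCR4, were both lower in every KO library than in either WT library. Ccl17 was at 0.14, 0.00 and 0.14 FPKM in KO, against 0.24 and 0.56 FPKM in WT. Ccl22 was at 0.27, 0.10 and 0.19 FPKM in KO, against 0.30 and 0.53 FPKM in WT. Ccl1, Ccl20 and Ccl28 overlapped, at under 0.4 FPKM.

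Cx3cl1 (fractalkine), a membrane-bound ligand that holds monocytes, was at 1.84, 1.12 and 1.15 FPKM in KO, against 1.30 and 1.37 FPKM in WT. Xcl1, the XCR1 ligand released by NK and CD8 T cells, stayed between 0.07 and 0.27 FPKM and overlapped.

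Receptors were lower in level than their ligands, summing to 11.0, 9.48 and 9.04 FPKM in KO, against 9.09 and 11.6 FPKM in WT. For the ligands the sums were 145, 108 and 138 FPKM in KO, against 140.0 and 188 FPKM in WT. Only 3 of the 23 receptors reached a mean of 1 FPKM, and all 3 overlapped. Cxcr4, the CXCL12 receptor, was at 2.60, 4.41 and 2.16 FPKM in KO, against 2.47 and 3.03 FPKM in WT. Cx3cr1, the fractalkine receptor of monocytes and macrophages, was at 1.79, 0.81 and 1.10 FPKM in KO, against 0.86 and 1.42 FPKM in WT. Ccr2, the receptor of inflammatory monocytes, was at 1.64, 0.45 and 1.29 FPKM in KO, against 0.90 and 1.50 FPKM in WT.

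Among the scarcer receptors, Cxcr6, carried by liver-resident T and NKT cells, was at 0.17, 0.09 and 0.24 FPKM in KO, against 0.29 and 0.32 FPKM in WT, without overlap, while its ligand Cxcl16 overlapped. Ccr7 was at 0.64, 0.41 and 0.34 FPKM in KO, against 0.66 and 0.85 FPKM in WT, the opposite direction to its ligand Ccl19. Ccr10, the receptor of CCL27, was at 0.10, 0.02 and 0.02 FPKM in KO, against 0.12 and 0.27 FPKM in WT, also opposite to its ligand. None of these differences between a ligand and its receptor was tested. Ccr1, the receptor of CCL6 and CCL9, was at 0.38, 0.25 and 0.41 FPKM in KO, against 0.32 and 0.79 FPKM in WT.

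The atypical receptors were all scarce and all overlapped. Ackr1 was at 0.34, 0.46 and 0.49 FPKM in KO, against 0.62 and 0.37 FPKM in WT. Ackr3, which removes CXCL12, was at 0.36, 0.85 and 0.35 FPKM in KO, against 0.65 and 0.59 FPKM in WT. Ackr2, which removes inflammatory CC chemokines, had the highest mean of the 4, at 0.710 FPKM in KO and 0.665 FPKM in WT. Ackr4, which removes CCL19, CCL21 and CCL25, stayed at or under 0.20 FPKM. The other receptors, Ccr3, Ccr4, Ccr6, Ccr8, Ccr9, Cxcr5 and Xcr1, stayed under 0.3 FPKM in every library, and Ccr1l1 was listed at 0.

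**Figure D3:**
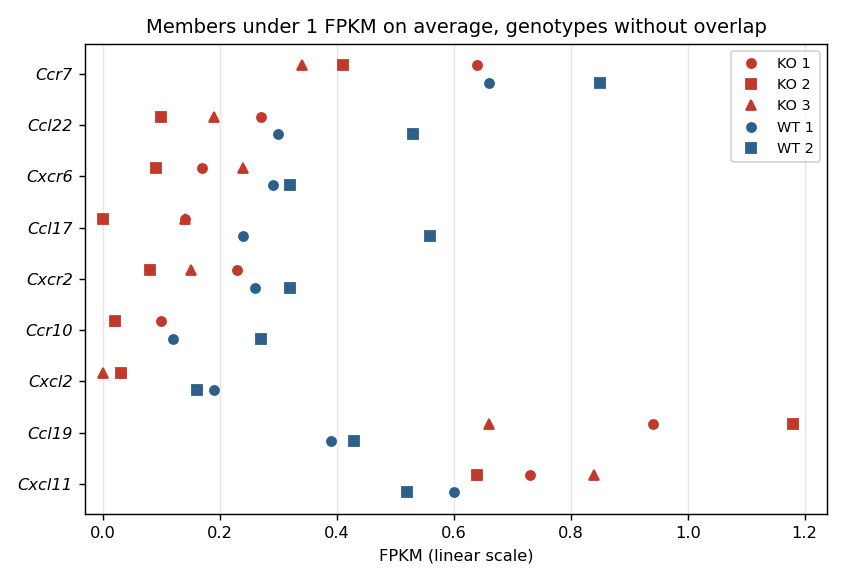
FPKM on a linear axis of 9 chemokine genes with a mean under 1 FPKM whose genotypes did not overlap, with 1 point per library (KO red and above, WT blue and below). The upper 7, from Ccr7 to Cxcl2, were lower in KO and the lower pair, Ccl19 and Cxcl11, were higher, with WT values under 0.9 FPKM throughout. Equal values cover each other, as for KO 1 and KO 2 of Cxcl2.

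Counted over the whole group, 42 of the 61 genes were below the expression limit, and 3 of these, Ccl26, Ccl27b and Ccr1l1, were listed at 0 in all libraries. Of the 58 genes above 0, 34 had a lower and 24 a higher mean in KO, so 58.6% were lower, where 42.4% of all genes above 0 were. All KO libraries were below both WT libraries in 11 of the 58 (19.0%), where 6.18% of all genes above 0 were. They were above both in 4 of the 58 (6.9%), where 8.55% were. Fitted with no expression filter, 9 were lower and 3 higher at an unadjusted p under 0.05 by limma, where 2.33% and 1.82% of all genes were, and 0 of the 58 passed after adjustment. The 11 and the 9 both include Cxcl9 and Cxcl1, which were known to be lower when the group was chosen. Their place in these counts is no independent finding. Most of these counts rest on values under 1 FPKM, which the table rounds to 2 decimals.

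The other genes that carry or induce the chemokine signal, from lists chosen by textbook role, were compared in the same fit, and 0 of them passed. Of 7 genes tested on the interferon gamma path to CXCL9 and CXCL10, 5 were lower and 2 higher, with a median of -0.0042. Ifngr1, a chain of the interferon gamma receptor, was at 41.64, 33.25 and 34.29 FPKM in KO, against 28.91 and 20.04 FPKM in WT, all KO libraries being higher. Jak2, a kinase of the same receptor, overlapped. Of 18 tested genes of the NF-kB path to CXCL1, 11 were lower and 7 higher, with a median of -0.03. Tnfaip3, an NF-kB feedback inhibitor, was at 1.39, 1.44 and 1.39 FPKM in KO, against 1.53 and 2.96 FPKM in WT. Ikbkb, an IkB kinase, was at 16.41, 10.48 and 12.21 FPKM in KO, against 12.43 and 57.81 FPKM in WT, where WT 2 stood apart from the other 4 libraries. Ikbkg, the regulatory subunit of that kinase, was at 7.33, 8.39 and 8.80 FPKM in KO, against 9.72 and 10.97 FPKM in WT.

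Downstream of the receptors, 7 of 23 signalling genes tested were lower and 16 higher (median 0.05). Fgr, a myeloid Src kinase, was at 0.80, 0.69 and 1.04 FPKM in KO, against 1.47 and 1.61 FPKM in WT, without overlap. Grk2, which phosphorylates activated receptors, was at 33.14, 9.41 and 14.24 FPKM in KO, against 9.45 and 7.73 FPKM in WT, with KO 1 far above the rest. Of 9 proteoglycans that hold chemokines on cell surfaces and matrix, 4 were lower and 5 higher (median 0.22). The decorin gene Dcn, with a fitted difference of 0.44, overlapped between genotypes. It was at 65.68, 40.15 and 57.79 FPKM in KO, against 35.66 and 43.18 FPKM in WT. Of 7 further chemokine system genes outside the naming rule, 3 were lower and 4 higher (median 0.05). Cmklr1, the chemerin receptor, was at 1.52, 1.14 and 1.29 FPKM in KO, against 1.68 and 2.55 FPKM in WT, without overlap. Pf4, the platelet chemokine CXCL4, was at 1.37, 0.84 and 1.38 FPKM in KO, against 0.57 and 1.09 FPKM in WT, with KO 2 below WT 2.

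Markers of the cells that make or answer these chemokines went in different directions, and 0 of those tested passed the adjusted test. Of 28 T and NK cell markers, 28 had a lower mean in KO, where 42.4% of all genes above 0 did. Taken singly, 10 of the 28 were lower without overlap, where 6.18% of all genes above 0 were. They summed to 9.81, 6.07 and 6.60 FPKM in KO, against 16.9 and 10.6 FPKM in WT, and these sums did not overlap. None of the 28 was at 0 in all libraries, though only 1 of them reached the expression limit. B and plasma cell markers had a lower mean in 12 of 14, summing to 202, 223 and 134 FPKM in KO, against 269 and 611 FPKM in WT. Of the 7 tested, 6 were lower at an unadjusted p under 0.05 by limma, where 1.45% of all genes were. Mzb1, among these 6, had a mean of 0.647 FPKM in KO and 2.01 FPKM in WT. It reached the expression limit only through WT, so the count of 6 is partly set by the filter. With no expression filter, 4 of the 14 were lower at an unadjusted p under 0.05 by limma, where 2.33% of all genes were. Macrophage and Kupffer cell markers, cells that also make CXCL9 and CXCL10, had a lower mean in 5 and a higher mean in 11 of 16, summing to 309, 166 and 323 FPKM in KO, against 215 and 276 FPKM in WT. Taken singly, 1 of the 16 was lower and 3 were higher without overlap, where 6.18% and 8.55% of all genes above 0 were. Neutrophil markers, among them Cxcr2 itself, had a lower mean in 7 and a higher mean in 7 of 14, summing to 11.4, 6.71 and 10.4 FPKM in KO, against 8.86 and 9.21 FPKM in WT. Without overlap, 3 of these 14, Cxcr2 included, were lower and 1 was higher, beside the same shares of all genes. Of the 14, 11 were below the expression limit. Dendritic cell markers, which include Ccr7 and Xcr1, had a lower mean in 5 and a higher mean in 5 of 10, and summed to 11.0, 7.77 and 6.95 FPKM in KO, against 8.68 and 11.3 FPKM in WT. The part of these cells in the chemokine levels was not tested.

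Other cell types overlapped in their sums. The mean was higher in KO in 11 of 12 endothelial markers, 2 of them without overlap. It was also higher in 9 of 12 stellate cell and fibroblast markers and in 7 of 8 cholangiocyte markers. Among all genes above 0, 9330 of 16286 had a higher mean in KO, and 8.55% had all KO libraries above both WT libraries. Endothelial markers summed to 133, 82.5 and 100 FPKM in KO, against 89.5 and 77.9 FPKM in WT, and stellate cell and fibroblast markers to 166, 108 and 125 FPKM in KO, against 96.3 and 127 FPKM in WT. Cholangiocyte markers summed to 342, 162 and 355 FPKM in KO, against 156 and 429 FPKM in WT. Eosinophil, basophil and mast cell markers, with a lower mean in 3 and a higher mean in 4 of 9, were nearly absent, at 1.84, 1.23 and 1.50 FPKM in KO, against 1.28 and 1.76 FPKM in WT, with Epx and Mcpt8 at 0. Platelet markers, higher on average in KO in 4 of 5, summed to 3.44, 1.78 and 3.92 FPKM in KO, against 2.37 and 1.49 FPKM in WT.

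**Figure D4:**
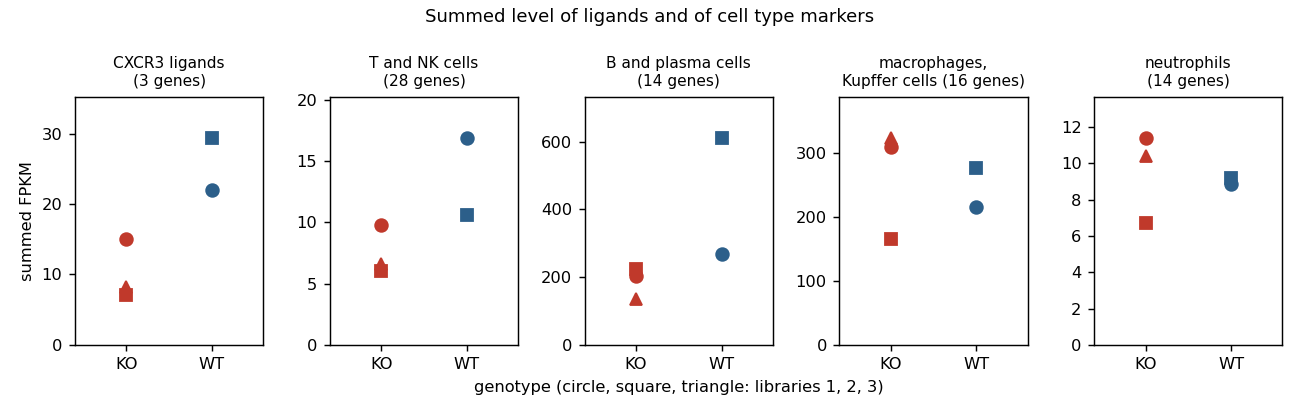
Summed FPKM per library, each panel with its own linear axis from 0, of the 3 CXCR3 ligands and of marker lists for T and NK cells, B and plasma cells, macrophages and Kupffer cells, and neutrophils (KO red and left, WT blue and right). The first 3 panels show all KO points below both WT points, and the macrophage and neutrophil panels overlap. Cxcl9 makes up most of the first panel and was known to be lower when the group was chosen. The separation in that panel is therefore no independent finding.

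Leaving out each library in turn kept Cxcl9, Cxcl1, Cxcl10, Ccl5 and Ccl25 below 0 and Ccl27a above it. Except for Ccl5, the genotypes of these genes did not overlap, so leaving out a library could not change the sign. For them only the size of the difference is informative. The log2 difference of Cxcl9 ran between -1.97 (without KO 1) and -1.27 (without KO 2) on that scale, that of Cxcl1 between -1.34 and -0.92, and that of Cxcl10 between -0.70 and -0.59. Ccl5 was the least even, at -1.21 without WT 2. In none of these 5 fits did a chemokine gene pass the limma test, the lowest adjusted p being 0.186 for Cxcl1 without WT 1.

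**Figure D5:**
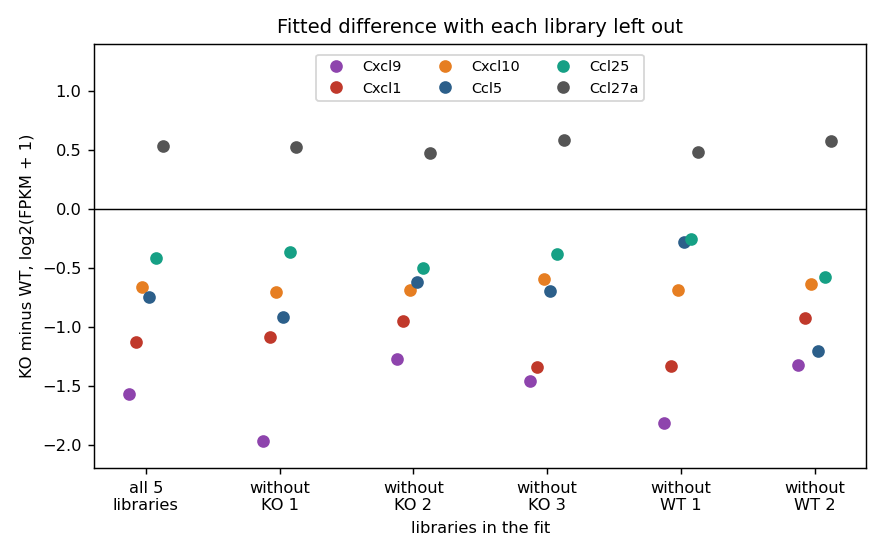
Fitted difference, KO minus WT in log2(FPKM + 1), with all 5 libraries and with each library left out, for the 5 chemokine genes with an unadjusted p under 0.05 and Ccl25. Cxcl9 stays between -1.97 and -1.27, Cxcl10 hardly moves, and Ccl5 ranges from -1.21 without WT 2 to -0.28 without WT 1.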

How the data were processed

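Tumour RNA was sequenced, and the authors deposited 1 table of FPKM per gene and library, per the file headers, with 2 decimals. Beside the FPKM, the authors deposited a log2 fold change, a p-value and a false discovery rate, per the file headers. Tools listed in the submitters' processing notes, without roles, are bcl2fastq 2.0, HISAT2, StringTie, DESeq2 and limma, with the build mm10. FPKM hold no library totals, so depth is unknown. Groups came from sample titles.

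Differences are KO minus WT on log2(FPKM + 1), a scale that understates changes of low genes. Genes with a mean of at least 1 FPKM were fitted with limma 3.58.1 (R 4.3.3) with a trended prior variance and no covariate. The main fit left 3 residual degrees of freedom, to which limma adds those of the prior variance. Its tests were two-sided, with Benjamini-Hochberg adjustment over 10132 genes. The script was tested on simulated data. The members, gene lists, naming rule and motifs were chosen with earlier results of these data known. Named with values were members of at least 1 FPKM, 19 members set by name, and up to 3 genes per list by p. Other members given with values, such as low ones without overlap, were chosen after their values were seen. The fixed alternatives were pseudocounts of 0.1 and 5, no filter, at least 5 FPKM, 3 rescalings (common sum, median ratio, quantile), no trend, robust fitting, the replicate block and leaving out each library. The shorter motif forms were adopted after the longer ones had been searched. A member and a list gene are not reported here by name. Positions are from GENCODE vM21 (GRCm38) and promoters from RefSeq (GRCm38.p6). Figures were drawn with matplotlib 3.10.9.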

Additional observations from a re-analysis of the deposited data

How the results depend on the processing

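Of 271 values of the 19 chemokine genes under 15 alternatives, 234 kept their direction and their side of the limma threshold, 35 changed sign and 2 passed the threshold. Cxcl9, Cxcl1, Cxcl10, Ccl5, Ccl25, Ccl9 and Ccl27a kept their sign in all alternatives in which they were tested. Except for Ccl5 and Ccl9, their genotypes did not overlap, so leaving out 1 library could not change the sign. Of the 35 sign changes, 26 came from leaving out 1 library, and the other 9 were close to 0. Ccl2 was at -0.0025 with a pseudocount of 5. Cx3cl1, Cxcl16 and Cxcl14 were at -0.0309, -0.0125 and -0.0214 with median-ratio rescaling and at -0.0446, -0.0188 and -0.0334 with quantile normalization. Over the fits that leave out 1 library, log2 differences ran from -0.47 to 0.57 for Ccl2, -0.70 to 0.42 for Ccl21a, -0.66 to 0.0715 for Ccl6, -0.28 to 0.17 for Ccr2, -0.13 to 0.0819 for Cx3cl1, -0.14 to 0.24 for Cx3cr1, -0.16 to 0.63 for Cxcl12, -0.28 to 0.23 for Cxcl13, -0.0788 to 0.19 for Cxcl14, -0.19 to 0.26 for Cxcl16, -0.38 to 1.23 for Cxcl17 and -0.15 to 0.24 for Cxcr4.

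The number of genes called, 1 of 10132, was 0 with a pseudocount of 5, no expression filter, at least 5 FPKM, a common sum, median-ratio rescaling or quantile normalization, 3 with robust fitting, and 0 to 17 with 1 library left out; the cause was not tested. The count of chemokine genes called stayed at 0 in all alternatives except the replicate block. The chemokine median of 0.01 was -0.27 with at least 5 FPKM, where 6 genes were left, and -0.25 to 0.0419 with 1 library left out. With WT 1 or WT 2 left out, the lone WT library is assumed to vary like the KO libraries, and the median difference of all genes was -0.0659 without WT 1 and 0.16 without WT 2, against 0.05 with all libraries.

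WT and KO share the replicate numbers 1 and 2, but the sources used here do not say that these numbers pair the samples. Over genes, deviations from the genotype means correlated by 0.0884 for KO 1 with WT 1 and by -0.241 for KO 2 with WT 2. The deviations of WT 1 and WT 2 mirror each other by construction, so these correlations cannot decide whether the samples are paired. With the replicate block, which gives KO 3 no weight in the comparison, 62 of 10132 genes were called. Among them were 2 of the 19 chemokine genes, Cxcl9 (log2 difference -1.46, limma adjusted p = 0.00212) and Cxcl1 (-1.34, limma adjusted p = 0.00621). Both were known to be lower when the group was chosen, so their calls are no independent finding. The block fit leaves 1 residual degree of freedom, so its p-values rest mostly on the variance that limma borrows across genes. Cxcl16 was at -0.0371 and Cxcl14 at -0.0788 with the block. Depth is unknown, and 39 genes between 0.006 and 0.838 FPKM on average were too low for the main test.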
